A study of Mus musculus with 9 samples.

Results

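Among the 53077 genes listed for 5TGM1-Cas9 mouse myeloma cells, 9 genes set apart the population that received gRNAs against 5 *Slc2* hexose transporters. They were chosen by their measured levels in that population against the control and *Slc2a1* gRNA-transduced cells, so those differences are a description here and carry no test. *Vrtn*, *Arhgap32*, *4930579D07Rik*, *Tnik*, *Ccdc7a* and *Gm15262* (6 genes) were selected as higher, and *1700012B07Rik*, *Upk1a* and *Arhgdib* (3 genes) as lower. The 9 genes lie on 9 different chromosomes.

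RNA was measured in 3 groups of 3 biological replicates. The 5TGM1 line is a mouse multiple myeloma line, and all groups carried lentiviral Cas9. The control group, labelled WT, received a gRNA against the *Rosa26* locus. A second group received an *Slc2a1* gRNA (labelled Slc2a1 KO), and the third received *Slc2a1/3/5/6/8* gRNAs (labelled Slc2a1/2a3/2a5/2a6/2a8 KO). The third population was built in steps, with *Slc2a3*, *Slc2a5*, *Slc2a6* and *Slc2a8* gRNA vectors that carry fluorescent reporters, a sort for reporter-positive cells, expansion, and then the *Slc2a1* gRNA. The sort, the expansion, the extra vectors and the deletions cannot be told apart in this design, and each culture is a mixture of edited and unedited cells rather than a clone. Nothing in the labels says how the replicate cultures were separated, so p-values measure the spread between these samples.

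Libraries held 21838805 to 30537105 estimated counts. Plasma cell markers summed to 858 to 1304 TPM (a level scaled by transcript length and library) across the 9 libraries, and 9 of 10 markers exceeded 1 TPM in at least one of them. *Cd38* was the exception, with at most 2 counts. Within this list *Jchain*, the immunoglobulin joining chain, fell with the *Slc2a1* gRNA (56.2 to 20.4 TPM, log2 fold change -1.33 ± 0.18 (SE), adjusted p = 0.00529 in edgeR) and rose with *Slc2a1/3/5/6/8* gRNAs (80.7 TPM, 0.59 ± 0.17, 0.0348), and *Tnfrsf13b* rose with the latter (0.42 ± 0.10, 0.0180). Of the 5 targeted genes, *Slc2a8* mRNA fell from 8.78 to 3.70 TPM (log2 fold change -1.22 ± 0.14 (SE), adjusted p = 0.000309 in edgeR), *Slc2a1* (-0.66 ± 0.18, 0.0290) and *Slc2a6* (-0.67 ± 0.19, 0.0366) mRNA also fell, *Slc2a3* did not pass (0.27 ± 0.15, 0.26), and *Slc2a5* mRNA rose from 0.226 to 1.00 TPM (2.65 ± 0.49, adjusted p = 0.00478) in *Slc2a1/3/5/6/8* gRNA-transduced cells against control. Against *Slc2a1* gRNA, *Slc2a8* passed (-1.045 ± 0.14, edgeR adjusted p = 0.00301). *Slc2a5*, with at most 51 counts in any library, did not pass there (adjusted p = 0.071), nor did *Slc2a1* (0.20), *Slc2a6* (0.30) and *Slc2a3* (0.41). In the *Slc2a1* gRNA group *Slc2a1* mRNA did not pass against control (39.8 to 32.3 TPM, -0.21 ± 0.18, adjusted p = 0.54), and mRNA level does not show whether a gene was edited.

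The 9 genes belong to no single pathway. *Arhgap32* and *Arhgdib* both encode regulators of small GTPases, molecular switches that act on the cytoskeleton: a GTPase-activating protein turns the GTP-bound switch off, and a GDP dissociation inhibitor holds the GDP-bound form in the cytosol. *Tnik* encodes a kinase that binds TRAF2 and NCK, acts downstream of Rap2 and takes part in Wnt target gene transcription. *Vrtn* is known for its effect on vertebral number, *Upk1a* encodes a tetraspanin of the urothelial plaque in the bladder, and *Ccdc7a* encodes a coiled-coil protein best known from testis. For *Gm15262*, *1700012B07Rik* and the lincRNA *4930579D07Rik* the name records only a predicted gene or a cDNA clone.

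*Vrtn* (ENSMUSG00000071235.12, chr12:84641019-84651455, plus strand, GRCm38) showed the highest level of the 6 raised genes in the *Slc2a1/3/5/6/8* libraries. Its TPM was 0.0966, 0.0107 and 0.0218 in control replicates 1, 2 and 3, and 0.109, 0.0361 and 0.0381 in *Slc2a1* gRNA-transduced replicates 1, 2 and 3. In the *Slc2a1/3/5/6/8* gRNA-transduced replicates it was 11.7, 18.1 and 16.2 TPM. The 6 other libraries thus held between 1 and 9 counts and the *Slc2a1/3/5/6/8* libraries between 1089 and 1321. The ratio of the mean TPM was 357 against control and 251 against *Slc2a1* gRNA. The log2 fold change was 8.47 ± 0.34 (SE) against control and 7.86 ± 0.33 against *Slc2a1* gRNA. With so few counts elsewhere the size rested on single libraries: it was 9.80 against control without control replicate 1, which held 9 of the 12 control counts, and 9.46 and 8.80 against the respective groups without *Slc2a1/3/5/6/8* replicate 1. At 15.3 ± 3.30 TPM (SD, n = 3), *Vrtn* stood above 90.7% of all listed genes in that population and above 64.2% in the control. At least 23915 of the 53077 listed genes had no reads in any library, so the control rank rests on 12 counts and does not show a moderate level. Among genes of somite segmentation and Notch signalling, the setting in which vertebrae form, 12 of 22 were tested. Of these, 1 (*Jag2*, a Notch ligand) fell against control, from 3.02 to 1.96 TPM (log2 fold change -0.76 ± 0.19, adjusted p = 0.0209 in edgeR). The count is near the share of all tested genes that fell, 7.44%, and nothing is read from it. The median log2 fold change of that list was -0.13, and that of all tested genes 0.01.

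*Arhgap32* (ENSMUSG00000041444.14, chr9:32116136-32268446, plus strand) encodes a brain-enriched GTPase-activating protein. It was the raised gene with at least 282 counts in every library, at 1.55, 0.967 and 1.78 TPM in control and 1.17, 1.00 and 1.98 TPM with the *Slc2a1* gRNA. With *Slc2a1/3/5/6/8* gRNAs it was 4.78, 9.95 and 13.5 TPM in replicates 1, 2 and 3. The groups did not overlap, and the spread within the *Slc2a1/3/5/6/8* libraries was 2.83-fold from lowest to highest, the widest of the 9 genes. The log2 fold change was 2.72 ± 0.18 against control and 2.64 ± 0.18 against *Slc2a1* gRNA.

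*Tnik* (ENSMUSG00000027692.16, chr3:28263214-28675858, plus strand) had 0 counts in all 3 control libraries. In the *Slc2a1* gRNA-transduced replicates it had 0, 2 and 0 counts, and with *Slc2a1/3/5/6/8* gRNAs 29, 34 and 53 counts. Its level stayed low there, at 0.156, 0.252 and 0.342 TPM. In RNA from whole cultures, a few cells with much of a transcript and many cells with little cannot be told apart. Relative to library size, *Tnik* was at least 15.0-fold higher than a control floor of 3 counts per library, and 54.4-fold higher than with the *Slc2a1* gRNA (exact Clopper-Pearson counting interval 14.7 to 455, which covers counting error only). Of its related kinases and partners, 13 of 19 were tested and 3 fell against control, where 7.44% of all tested genes fell: *Map4k1* from 61.2 to 39.9 TPM (log2 fold change -0.47 ± 0.11, adjusted p = 0.0123), *Map4k2* (-0.34 ± 0.10, 0.0407) and the closest relative listed, *Mink1* (-0.40 ± 0.12, 0.0446). Against *Slc2a1* gRNA *Map4k1*, *Map4k2* and *Mink1* did not pass (edgeR adjusted p = 0.19, 0.30 and 0.30). Partners *Traf2* (log2 fold change 0.20, adjusted p = 0.36), *Nck1* (0.13, 0.44) and *Rap2a* (0.13, 0.65) did not pass against control. Of 14 common Wnt target genes 5 were tested, and 3 of them rose, where 8.49% of all tested genes did. *Myc* (0.86 ± 0.10, adjusted p = 0.000462), *Znrf3* (0.46 ± 0.14, 0.0380) and *Ccnd1* (0.39 ± 0.12, 0.0488) rose against control. *Myc* also rose with the *Slc2a1* gRNA alone (0.51 ± 0.10, adjusted p = 0.0209), and against *Slc2a1* gRNA these 3 genes did not pass (adjusted p = 0.096, 0.36 and 0.98). The other 2 tested, *Rnf43* (log2 fold change -0.48 against control, adjusted p = 0.29) and *Tcf7* (0.20, 0.85), did not pass. The widely used reporters *Axin2* and *Lef1* had at most 7 and 2 counts in any library.

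*4930579D07Rik* (ENSMUSG00000116813.1, lincRNA, chr17:4851698-4892987, minus strand) was listed with 0 counts in all 6 control and *Slc2a1* gRNA libraries. The *Slc2a1/3/5/6/8* replicates held 198, 164 and 208 counts, or 4.90, 5.57 and 5.81 TPM. These 3 values lay within 1.19-fold of each other, the tightest spread among the 9 genes, at a mean of 5.42 ± 0.470 TPM (SD, n = 3). Relative to library size the level was at least 73.6-fold higher than a floor of 3 counts per library in control and at least 59.4-fold higher than that floor with the *Slc2a1* gRNA. The annotation gives the gene 2 spliced transcripts whose last exons begin at the same acceptor, and whose starts lie at chr17:4854482 (4930579D07Rik-201) and chr17:4892987 (4930579D07Rik-202). The deposited mean transcript length was 1488 bases in each of the 3 libraries, which is the length of transcript 4930579D07Rik-201 alone, while 4930579D07Rik-202 measures 828 bases. The 2 transcripts differ in the exon joined to that acceptor, at chr17:4852466. Their junctions are printed from GENCODE M21 on GRCm38, 30 bases on each side, with the upstream exon in capitals. The junction is not their only difference, since the last exons also end apart, at chr17:4851698 in 4930579D07Rik-201 and chr17:4852013 in 4930579D07Rik-202. The deposited lengths do not say whether reads crossed a junction. The upstream exon is chr17:4853764-4854482 in 4930579D07Rik-201 and chr17:4884840-4885086 in 4930579D07Rik-202.
4930579D07Rik-201: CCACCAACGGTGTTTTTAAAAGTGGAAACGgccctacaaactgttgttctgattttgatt
4930579D07Rik-202: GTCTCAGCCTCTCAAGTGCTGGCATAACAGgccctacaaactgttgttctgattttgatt

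*Gm15262* (ENSMUSG00000108981.1, chrX:161287456-161366252, plus strand, annotated as protein-coding) and *Ccdc7a* (ENSMUSG00000025808.17, chr8:128734235-129065517, minus strand) were also at 0 counts in the 6 other libraries. *Gm15262* had 29, 37 and 23 counts with *Slc2a1/3/5/6/8* gRNAs (0.182, 0.317 and 0.165 TPM), at least 11.5-fold above the control floor and at least 9.28-fold above the *Slc2a1* gRNA floor, relative to library size. *Ccdc7a* had 31, 57 and 33 counts (0.200, 0.530 and 0.351 TPM), at least 15.6-fold and at least 12.6-fold above those floors. All *Gm15262* reads were assigned to 1 of its 7 transcripts, since the length was 5010 bases, that of Gm15262-202, in every library with reads. *Ccdc7a* lengths of 4865, 4635 and 3465 bases lay between those of its short transcripts (917 to 1547 bases) and of Ccdc7a-205 (5544 bases). The neighbouring paralogue *Ccdc7b* shares 313 of 5451 words of 31 bases with the longest *Ccdc7a* transcript. It was at 17, 2 and 6 counts in control, 6, 9 and 15 with the *Slc2a1* gRNA and 12, 12 and 22 with *Slc2a1/3/5/6/8* gRNAs (log2 fold change 1.22 against control, adjusted p = 0.27), so the *Ccdc7a* counts carry that uncertainty of assignment. *Gm3952*, which shares 514 of these words, was at 0 counts in all libraries. Testis germ cell markers were near 0 in every group. Their summed level over 12 genes was 0.379 to 1.65 TPM in control, 0.318 to 0.541 TPM with the *Slc2a1* gRNA and 0.520 to 0.829 TPM with *Slc2a1/3/5/6/8* gRNAs, and *Sycp1*, *Prm2*, *Tnp1* and *Tnp2* were at 0 throughout. Neuron markers, given for the brain-enriched *Arhgap32* and *Tnik*, summed to at most 0.864 TPM in control, 0.718 TPM with the *Slc2a1* gRNA and 0.760 TPM with *Slc2a1/3/5/6/8* gRNAs, with *Rbfox3* and *Stmn2* at 0.

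**Figure D1:**
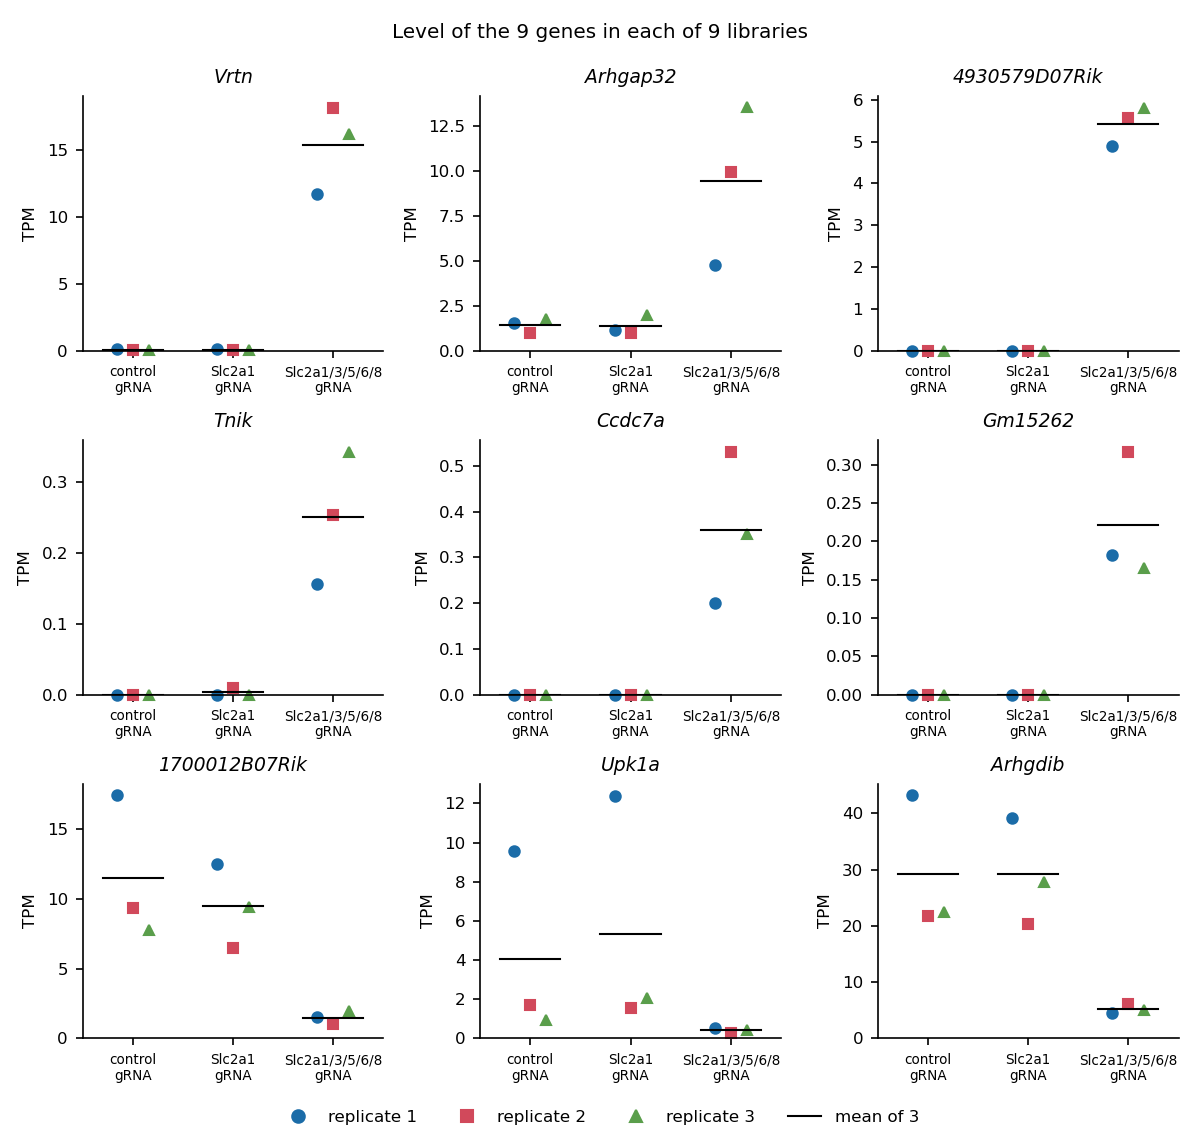
TPM (vertical axis, linear, a separate scale for each gene) of the 9 genes in each library, by group; points are single libraries with the replicate as symbol and the line is the mean of 3. In every panel the 3 *Slc2a1/3/5/6/8* gRNA libraries lie wholly above or wholly below the other 6, and *Upk1a* in replicate 1 of the control (9.57 TPM) and *Slc2a1* gRNA (12.4 TPM) groups lies far above replicates 2 and 3.

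The lowered genes had reads in every library. *Arhgdib* (ENSMUSG00000030220.13, chr6:136923655-136941899, minus strand), a GDP dissociation inhibitor of blood cells, was the most abundant of the 9 genes in control cells. It measured 43.3, 21.8 and 22.4 TPM in control, 39.2, 20.4 and 27.9 TPM with the *Slc2a1* gRNA, and 4.501, 6.09 and 5.08 TPM with *Slc2a1/3/5/6/8* gRNAs. The *Slc2a1/3/5/6/8* values were alike within 1.35-fold, and the lowest of the 6 other libraries stood at 20.4 TPM against a highest value of 6.09 TPM there. The control mean was 5.59 times and the *Slc2a1* gRNA mean 5.58 times the *Slc2a1/3/5/6/8* mean, with log2 fold changes of -2.28 ± 0.18 and -2.42 ± 0.18.

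*Upk1a* (ENSMUSG00000006313.5, chr7:30603092-30612847, minus strand) varied widely between replicates of the control and *Slc2a1* gRNA groups. It measured 9.57, 1.71 and 0.930 TPM in control replicates 1, 2 and 3 and 12.4, 1.58 and 2.07 TPM with the *Slc2a1* gRNA. With *Slc2a1/3/5/6/8* gRNAs it was 0.524, 0.252 and 0.443 TPM, from 20, 7 and 15 counts. Replicate 1 was 7.26 times the mean of replicates 2 and 3 in control, 6.79 times in the *Slc2a1* gRNA group and 1.51 times in the *Slc2a1/3/5/6/8* group. Of 12272 tested genes with at least 10 counts in replicates 2 and 3 of the first 2 groups, *Upk1a* was the 1 gene with replicate 1 at least 5-fold higher in both. That comparison was chosen after these values were seen. The control mean was 10.01 times and the *Slc2a1* gRNA mean 13.2 times the *Slc2a1/3/5/6/8* mean, with log2 fold changes of -2.77 ± 0.45 and -3.33 ± 0.45. Without replicate 1 of all 3 groups the log2 fold changes were -1.97 and -2.59. They were -3.44 and -4.04 without *Slc2a1/3/5/6/8* replicate 3, and -1.44 and -1.76 with limma on log2(TPM + 1). The mitochondrial share of counts, a sign of RNA quality, was 8.01%, 8.01% and 4.84% in control, 8.69%, 10.5% and 6.57% with the *Slc2a1* gRNA and 11.1%, 5.84% and 4.91% with *Slc2a1/3/5/6/8* gRNAs, and its part in these values was not tested.

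The partners of *Upk1a* in the urothelial plaque were not detected. The 5 other uroplakin genes had at most 1 count in any library and none was tested, and the urothelial keratins *Krt5* and *Krt20* were at 0. *Grhl3*, a transcription factor on the urothelium list, was read in all groups (0.910, 0.818 and 0.967 TPM in the order control, *Slc2a1* gRNA and *Slc2a1/3/5/6/8* gRNAs) and did not pass against control (adjusted p = 0.75). Of 27 other tetraspanins 15 were tested, and 1 rose and 1 fell against control. Of all tested genes 8.49% rose and 7.44% fell, so nothing is read from these counts. *Tspan33* rose against control (0.233 to 0.735 TPM, log2 fold change 1.67 ± 0.47, adjusted p = 0.0312 in edgeR) and *Tspan13* fell (150 to 106 TPM, -0.43 ± 0.14, 0.0475). *Tspan13* also fell with the *Slc2a1* gRNA alone, to 82.2 TPM (log2 fold change -0.72 ± 0.14, adjusted p = 0.0170). The abundant *Cd81* (171 and 180 TPM), *Cd37* (105 and 101 TPM) and *Cd53* (56.4 and 55.4 TPM) had log2 fold changes between -0.08 and 0.13 and did not pass.

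*1700012B07Rik* (ENSMUSG00000020617.13, chr11:109787651-109828046, minus strand, annotated as protein-coding) measured 17.4, 9.35 and 7.74 TPM in control and 12.5, 6.46 and 9.46 TPM with the *Slc2a1* gRNA. With *Slc2a1/3/5/6/8* gRNAs it was 1.51, 1.01 and 1.94 TPM. The control mean was 7.74 times and the *Slc2a1* gRNA mean 6.37 times the *Slc2a1/3/5/6/8* mean, with log2 fold changes of -2.78 ± 0.31 and -2.69 ± 0.31. Replicate 1 was the highest of its group in control and with the *Slc2a1* gRNA for all 3 lowered genes, by 1.57 to 2.04 times the mean of replicates 2 and 3 for *1700012B07Rik* and *Arhgdib*. Without replicate 1 of all 3 groups the log2 fold changes against control were -2.58 for *1700012B07Rik* and -2.0 for *Arhgdib*. Markers of other blood cells, given because *Arhgdib* is expressed across blood lineages, were low. In *Slc2a1/3/5/6/8* libraries B cell markers summed to 0.131 to 1.04 TPM, T cell markers to 2.63 to 3.95 TPM (mostly *Cd2*, at a mean of 2.38 TPM) and myeloid markers to 0.154 to 1.15 TPM. The control ranges were 0.339 to 0.588, 1.34 to 3.15 and 0.128 to 0.659 TPM, and with the *Slc2a1* gRNA 0.346 to 0.606, 0.465 to 2.07 and 0.281 to 0.882 TPM. Fibroblast markers summed to at most 1.47 TPM in any library. Of these, *Pdgfra* fell to 0 TPM in all 3 *Slc2a1/3/5/6/8* libraries (edgeR adjusted p = 0.0189 against control and 0.0304 against *Slc2a1* gRNA), from 0.188, 0.00466 and 0.0238 TPM in control and 0.179, 0.0579 and 0.0389 TPM with the *Slc2a1* gRNA, highest in replicate 1 of both. The defining *Cd3e* and *Csf1r* had at most 4 and 5 counts. In *Slc2a1/3/5/6/8* replicate 3 the T cell marker *Cd4* stood at 1.65 TPM and the B cell marker *Cd22* at 0.668 TPM. In replicates 1 and 2 of that group *Cd4* was at 0.0525 and 0.115 TPM, and *Cd22* at 0.0348 and 0.0458 TPM. In the 6 other libraries *Cd4* was at most 0.280 TPM and *Cd22* at most 0.0301 TPM, and neither gene was tested.

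For each of the 9 genes the TPM of the *Slc2a1/3/5/6/8* libraries did not overlap that of the 6 others. Of the 13834 genes tested, 2.40% lay wholly above and 3.17% wholly below in the same way. The members were picked for this separation, so nothing is read from the count. In the edgeR fit 15.9% of tested genes passed against control (8.49% higher and 7.44% lower) and 2.31% against *Slc2a1* gRNA (1.36% higher and 0.947% lower). The balance depended on scaling: with TMM 1175 genes were higher and 1029 lower against control, with total-count scaling 822 and 1141, and against *Slc2a1* gRNA the numbers were 188 and 131, and 205 and 90. All 9 genes passed the filter on low counts, *Vrtn*, *4930579D07Rik*, *Tnik*, *Ccdc7a* and *Gm15262* only through the *Slc2a1/3/5/6/8* libraries.

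The members were chosen as different from both other groups, so their values in *Slc2a1* gRNA-transduced cells against control are likewise a description, with no test. For the 4 genes with enough reads in these 2 groups to pass the filter without the *Slc2a1/3/5/6/8* libraries, the log2 fold change was 0.08 ± 0.18 (SE) for *Arhgap32*, -0.10 ± 0.26 for *1700012B07Rik*, 0.56 ± 0.36 for *Upk1a* and 0.14 ± 0.16 for *Arhgdib*. *Vrtn* had 12 counts in control and 14 with the *Slc2a1* gRNA, which leaves its value of 0.61 ± 0.68 imprecise. *Tnik* had 0 and 2 counts, and *4930579D07Rik*, *Ccdc7a* and *Gm15262* had 0 counts in both groups.

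Genes silent elsewhere and read in one population were rare. With at least 10 counts in all 3 libraries of a population and at most 3 in each of the 6 others as the criterion, 10 genes were detected with *Slc2a1/3/5/6/8* gRNAs, 1 in control (*Gm38227*, at 10, 11 and 11 counts) and 0 with the *Slc2a1* gRNA, while 0 genes were lost from any population. When libraries were left out, 10 to 16 genes were detected with *Slc2a1/3/5/6/8* gRNAs, 1 to 6 in control and 0 to 3 with the *Slc2a1* gRNA. Genes lost then numbered at most 5, 3 and 1 in the same order. *4930579D07Rik*, *Ccdc7a*, *Tnik* and *Gm15262* were 4 of the 10 found with all libraries. *Vrtn* was not, since control replicate 1 and *Slc2a1* gRNA replicate 1 held 9 and 8 counts. The 6 others were *Slc38a3* (an amino acid transporter, 106, 85 and 127 counts), *Ptpn13* (a protein tyrosine phosphatase, 13, 28 and 48), *Trpc7* (a cation channel, 18, 23 and 28), *Bfsp1* (a lens filament protein, 27, 16 and 22), *Acp7* (a predicted acid phosphatase, 13, 13 and 31) and the antisense RNA *B230364G03Rik* (16, 14 and 21). Of these, *Ptpn13*, *Acp7* and *B230364G03Rik* had 0 counts in all 6 other libraries. Of the 10, 3 remained when at least 30 counts were required (*4930579D07Rik*, *Slc38a3* and *Ccdc7a*) and 7 when at most 1 count was allowed elsewhere, *Tnik*, *Trpc7* and *Bfsp1* being dropped.

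**Figure D2:**
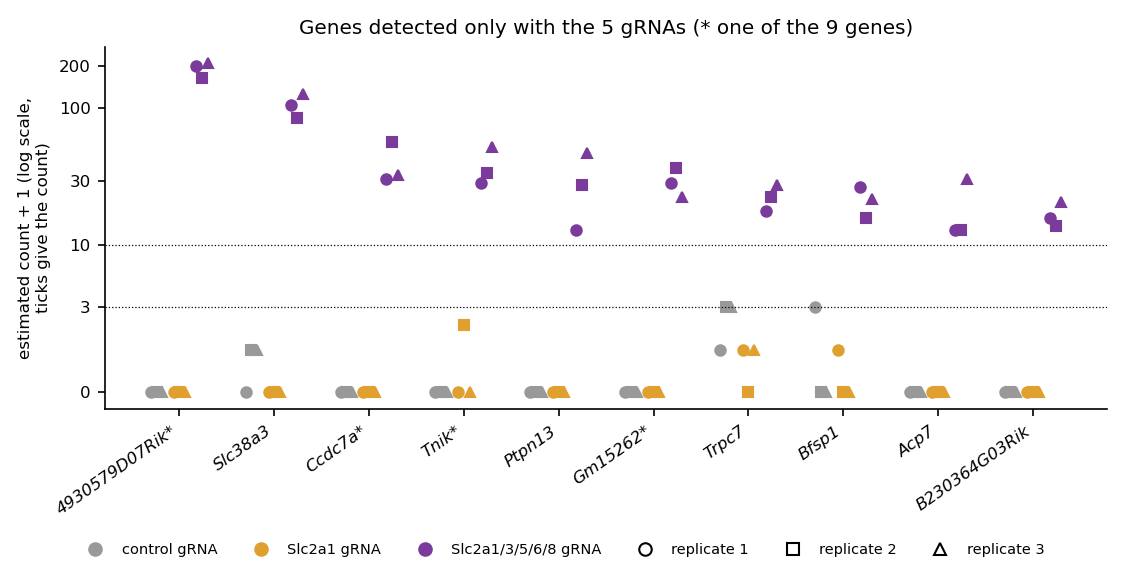
Estimated counts (vertical axis, count + 1 on a log scale with ticks at the count itself) in each of 9 libraries for the 10 genes detected with *Slc2a1/3/5/6/8* gRNAs alone; colour gives the group, symbol the replicate, and dotted lines mark 3 and 10 counts. *4930579D07Rik* (164 to 208 counts) and *Slc38a3* (85 to 127) stand above the rest, and the control and *Slc2a1* gRNA libraries hold 0 to 3 counts.

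The same genes returned when each member was matched, by Pearson's r of log2 library-scaled counts over the 9 samples, with the tested genes outside the set. These r values are descriptive, since the samples share groups and replicate numbers and genes at 0 in 6 libraries must correlate. *B230364G03Rik* was the best match for *4930579D07Rik* (r = 0.999), *Gm15262* (0.988), *Ccdc7a* (0.987), *Vrtn* (0.986) and *Tnik* (0.984), with *Slc38a3* next for *4930579D07Rik* (0.997). *Vrtn* was further matched by *Bfsp1* (0.983) and by *Nupr1*, a stress-induced transcriptional regulator that was abundant in all groups (91.0, 89.5 and 168 TPM; r = 0.981). *Arhgap32* was matched by *Ptpn13* (0.988), *Acp7* (0.982) and *Lsm14a* (0.976). *Ptpn13* shared its order of replicates, lowest in *Slc2a1/3/5/6/8* replicate 1 and highest in replicate 3.

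The lowered genes had other matches. *Arhgdib* was closest to *Lnx1*, a ubiquitin ligase (63, 42 and 40 counts in control, 57, 36 and 29 with the *Slc2a1* gRNA, 7, 10 and 9 with *Slc2a1/3/5/6/8* gRNAs; r = 0.983), *Rnasek* (0.982) and *Gm14207* (0.979). *1700012B07Rik* was closest to the kinase gene *Rps6ka1* (0.971), *Rnasek* (0.969) and *Phf21b* (0.967). *Upk1a* was closest to *Mst1* (0.974), *Cnksr1* (0.964) and *Dpep3* (0.963). *Dpep3*, a membrane dipeptidase gene, had the replicate 1 excess of *Upk1a*: 90, 8 and 6 counts in control, 48, 8 and 18 with the *Slc2a1* gRNA, and 0 in all 3 *Slc2a1/3/5/6/8* libraries. Among the 3 lowered genes r was 0.964 for *1700012B07Rik* with *Arhgdib*, 0.899 for *Upk1a* with *Arhgdib* and 0.892 for *Upk1a* with *1700012B07Rik*.

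The mean transcript length that the quantification assigns to a gene was not used to choose the members. It depends on the annotated transcripts to which reads were assigned, and a length between annotated lengths can come from several mixtures of them. *Vrtn* lengths were at or near that of Vrtn-201 (3028 bases), with values of 3042, 3028 and 3040 bases in the *Slc2a1/3/5/6/8* libraries. Of 18 *Tnik* transcripts none accounted for the lengths alone, which were 5776, 5734 and 5539 bases, and the 2 counts in *Slc2a1* gRNA replicate 2 gave 7108 bases, the length of the nonsense-mediated decay transcript Tnik-207. *Arhgdib* was at 1193 bases, that of Arhgdib-201, in *Slc2a1/3/5/6/8* replicates 1 and 2 and at 1120 bases in replicate 3, against 1127, 1142 and 1109 bases in control and 1124, 1150 and 1046 bases with the *Slc2a1* gRNA. *Upk1a* has 1 annotated transcript of 1421 bases.

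For genes with at least 10 counts in each of 6 libraries, lengths could be compared between groups by an exact two-sided permutation test, which with 3 against 3 cannot go below p = 0.10. The difference for *Arhgdib* was 42.7 bases against control and 62.0 bases against *Slc2a1* gRNA (exact p = 0.30 for both). *Arhgap32* differed by 165 bases against control (exact p = 0.70), where the control libraries spread from 8629 to 9570 bases, and *1700012B07Rik* by 6.91 bases (exact p = 0.60). All groups overlapped for these genes in all 3 comparisons, while 16.9% of the genes so compared did not overlap against control, 11.1% against *Slc2a1* gRNA and 13.0% between *Slc2a1* gRNA and control. With this number of libraries no difference in length could pass, and lengths could not be compared for the genes at or near 0 elsewhere.

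**Figure D3:**
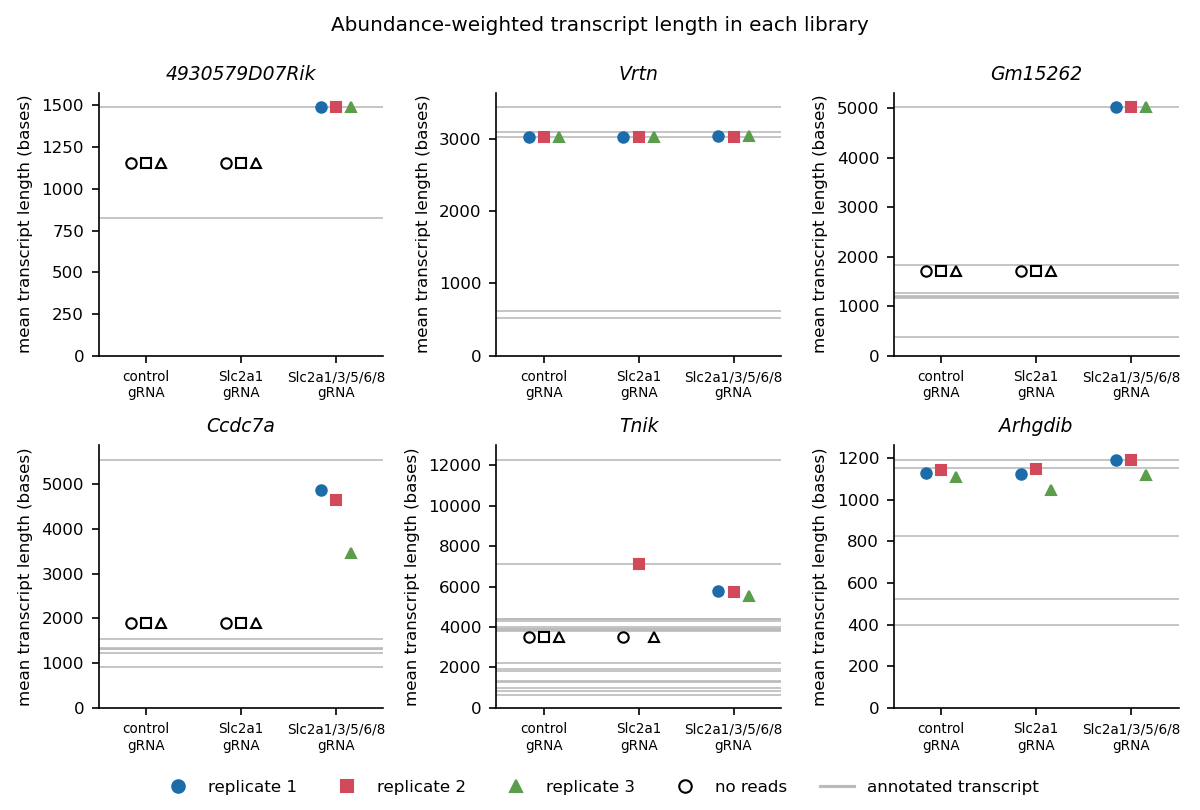
Abundance-weighted mean transcript length (vertical axis, bases, from 0) of 6 of the genes in each library, by group; filled symbols are libraries with reads, open black symbols libraries without (the value is then the plain mean of the annotated transcripts), and grey lines mark annotated transcript lengths. *4930579D07Rik* and *Gm15262* lie on 1 transcript line (1488 and 5010 bases) in all 3 *Slc2a1/3/5/6/8* libraries, *Vrtn* lies within 14 bases of 3028, and *Ccdc7a* and *Tnik* lie between lines.

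Because position was not used to choose the genes, the nearest tested genes on either side, 5 where the chromosome allowed, were examined. These 88 neighbours of the 9 genes lay up to 3821 kb away. Against control 12 of 88 passed (13.6%, with 15.9% of all tested genes), 8 higher and 4 lower, and with total-count scaling 8 passed, 4 higher and 4 lower. Against *Slc2a1* gRNA 1 of 88 passed (1.14%, with 2.31% overall), and between *Slc2a1* gRNA and control 2 (2.27%, with 4.64%), *Phka2* (log2 fold change -0.69, adjusted p = 0.0161) and *Abca5* (-0.56, 0.0414), both lower. The count against control fell when single libraries were left out, and so did the count over all genes. It was 3 of 88 without control replicate 1 (631 of 14189 genes overall) and 4 of 86 without control replicate 2 (994 of 14225). Without control replicate 3 it was 4 of 88 (736 of 14253), and without *Slc2a1/3/5/6/8* replicate 3 it was 6 of 88 (877 of 14308). Nothing is read about the neighbours from this fall. Against *Slc2a1* gRNA, DESeq2 called 9 of 73 neighbours (776 of 11420 genes overall), the fit with no filter 9 of 88 (974 of 26457) and the fit without *Slc2a1/3/5/6/8* replicate 3 called 5 of 88 (332 of 14308), so the position of the neighbours' share relative to all genes depended on the processing.

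*Gm32856*, 198 kb from *Ccdc7a*, was the neighbour called in both comparisons with *Slc2a1/3/5/6/8* gRNAs. Its mean level was 8.04 TPM in control, 7.02 with the *Slc2a1* gRNA and 14.8 with *Slc2a1/3/5/6/8* gRNAs (log2 fold change 1.15 ± 0.13 against control, adjusted p = 0.000314, and 0.97 against *Slc2a1* gRNA, adjusted p = 0.00320). The call against control held in all 16 alternatives (adjusted p up to 0.0422) and that against *Slc2a1* gRNA in 15 of 16, limma on log2(TPM + 1) giving an adjusted p of 0.0640. The genes next to *Ccdc7a* did not pass: *Itgb1*, the integrin subunit 1035 bases away, was at 83.4 and 75.4 TPM in control and *Slc2a1/3/5/6/8* cells (log2 fold change -0.10, adjusted p = 0.62), and *Ccdc7b* lies 1617 bases away on the other side.

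Around the other raised genes some neighbours passed and the nearest often did not. *Vrtn* lies 23.6 kb from *Abcd4* (8.98 and 8.42 TPM in control and *Slc2a1/3/5/6/8* cells, adjusted p = 0.85) and 103 kb from *Npc2*, which fell (125 to 84.7 TPM, log2 fold change -0.48 ± 0.11, adjusted p = 0.0116). *Arhgap32* lies 154 kb from *Fli1*, a haematopoietic transcription factor that rose against control (25.4 to 32.7 TPM, 0.41 ± 0.11, adjusted p = 0.0304) but did not pass against *Slc2a1* gRNA (0.0645). *Aplp2* (0.51) and *Zbtb44* (0.61), also near *Arhgap32*, rose against control. *Tnik* lies 22 kb from *Slc2a2*, an untargeted family member with 0 to 5 counts in any library, and among its tested neighbours *Nceh1* rose (0.47) and *Ect2* (-0.47) and *Gm37924* (-1.04) fell. *4930579D07Rik* lies 101 kb from *Arid1b* (9.84 and 10.2 TPM, adjusted p = 0.87), and *Tiam2*, 1320 kb away, rose from 0.445 to 1.11 TPM (1.18 ± 0.29, adjusted p = 0.0188). The remaining neighbours that passed against control were *2610044O15Rik8* (0.45) near *Ccdc7a*, and *Txlng* (0.36) and *Phka2* (-0.73) near *Gm15262*. Most of these calls depended on the processing: of 16 alternatives *Txlng* lost its call in 11, *Gm37924* and *2610044O15Rik8* in 9 each, *Fli1* and *Aplp2* in 8 each, *Nceh1* in 7, *Ect2* and *Tiam2* in 6 each, *Npc2* in 5, *Zbtb44* in 2 and *Phka2* in 1.

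Among the lowered genes, *Upk1a* lies in a dense stretch, 4.01 kb from *Cox6b1* (250 and 190 TPM in control and *Slc2a1/3/5/6/8* cells, log2 fold change -0.29, adjusted p = 0.10) and 14.4 kb from *Kmt2b* (14.1 and 12.0 TPM, adjusted p = 0.60). Just beyond the 5 neighbours on that side, *Hspb6* (47649 bases away) and *Arhgap33* (68032 bases away), chosen after their values were seen, fell against control in edgeR (log2 fold change -1.21 ± 0.19, adjusted p = 0.00202, and -0.84 ± 0.18, 0.0106). *Hspb6* also fell with the *Slc2a1* gRNA alone (-0.94 ± 0.19, adjusted p = 0.0207). *Arhgdib* is overlapped on the opposite strand by *Pde6h*, which shares 80 of its 1163 words of 31 bases and had 0 counts in 8 libraries and 2 in *Slc2a1/3/5/6/8* replicate 3. *Arhgdib* lies on the chromosome of the targeted *Slc2a3*, 14.1 Mb apart, and the other members lie on chromosomes without a targeted gene.

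**Figure D4:**
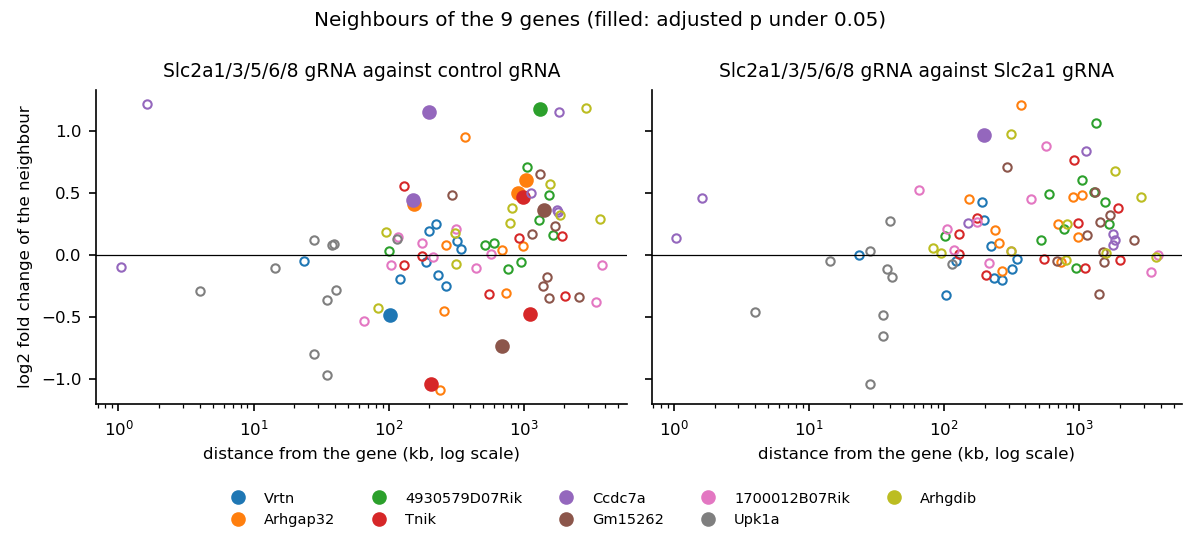
Log2 fold change (vertical axis) of the 88 tested neighbours against their distance from the gene they flank (horizontal axis, kb, log scale), for *Slc2a1/3/5/6/8* gRNA against control (left) and against *Slc2a1* gRNA (right); colour gives the flanked gene and filled points passed the test. The 12 filled points on the left fall on both sides of 0, and on the right *Gm32856* near *Ccdc7a* is filled (0.97).

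RefSeq promoter windows (GRCm38.p6, the 250 bases before an annotated start) were found for 6 of the 9 genes, 12 windows in all. They were searched for CG dinucleotides and a short list of motifs, with no test against other windows. All 32851 windows of the genome hold a median of 6 CG dinucleotides (quartiles 2 and 16), and the 12 windows hold 0 to 31. *Upk1a* has none, as against 92.1% of windows with at least 1, and one *Arhgap32* start has 31, more than 94.8% of windows. The *Upk1a* window precedes a RefSeq start at chr7:30612734, at which no GENCODE M21 transcript begins. Upk1a-201 begins at chr7:30612847, inside the window, and 137 of the 250 bases lie outside annotated exons. An AP-1 motif (TGANTCA, 6.75% of windows) occurs in the *Ccdc7a* window and a TATA motif (TATAAA, 12.4%) in one of the 3 *Arhgdib* windows, 2 times. The GC box (GGGCGG, 32.7%) occurs in 1 *Arhgap32* and 1 *Arhgdib* window. The E-box (CANNTG, 66.2%) occurs in all but 1 window and the ETS core (GGAA, 93.4%) in all but 1, while the octamer ATTTGCAT (1.60%) occurs in none. Motifs were searched on both strands, and a match or its lack is a description of these letters alone. The bases outside annotated exons are printed with each CG in capitals, for the start of Vrtn-201, the *Vrtn* transcript nearest in length, (chr12:84642848-84642895, plus strand), the CG-rich *Arhgap32* start of RefSeq (chr9:32032053-32032302, plus), at which no GENCODE M21 transcript begins, *Upk1a* (chr7:30612848-30612984, minus) and one *Arhgdib* start (chr6:136941504-136941650, minus).
Vrtn: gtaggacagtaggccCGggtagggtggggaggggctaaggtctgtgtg
Arhgap32: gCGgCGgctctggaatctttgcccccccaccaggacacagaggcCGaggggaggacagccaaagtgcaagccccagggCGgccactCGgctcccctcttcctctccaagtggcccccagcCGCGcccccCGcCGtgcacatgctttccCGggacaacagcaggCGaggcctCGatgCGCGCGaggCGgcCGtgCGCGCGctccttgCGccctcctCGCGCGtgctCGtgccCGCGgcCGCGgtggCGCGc
Upk1a: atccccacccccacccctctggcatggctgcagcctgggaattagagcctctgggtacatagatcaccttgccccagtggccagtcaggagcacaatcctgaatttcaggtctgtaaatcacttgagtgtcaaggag
Arhgdib: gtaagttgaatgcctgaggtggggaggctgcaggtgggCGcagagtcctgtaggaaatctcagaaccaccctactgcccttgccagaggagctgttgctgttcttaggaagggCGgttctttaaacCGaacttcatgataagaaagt

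The lists of related genes and markers, together with the 5 targeted transporters, held 116 tested genes outside the set. Of these, 26 passed against control, where 15.9% of all tested genes did. The targeted transporters gave 1 higher and 3 lower of these calls. The count was 5 of 122 without control replicate 1 (631 of 14189 genes overall) and 10 of 120 without control replicate 2 (994 of 14225). It was 7 of 119 without control replicate 3 (736 of 14253) and 9 of 123 without *Slc2a1/3/5/6/8* replicate 3 (877 of 14308).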

How the data were processed

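Poly(A) RNA from 9 cultures was sequenced by the authors as oligo-dT-primed paired-end libraries. The authors quantified genes with Salmon 1.5.1 (submitters' processing notes), and deposited per gene an estimated count, a TPM level and a mean transcript length. The annotation is not named in the sources used here. GENCODE M21 (GRCm38) was used for positions and transcripts, because 98.3% of 23915 genes without reads had its mean transcript length within 0.01 bases (93.2% of 4454 such genes with several transcripts).

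For testing, the estimated counts were taken to whole numbers, and edgeR 4.0.16 was applied (R 4.3.3; quasi-likelihood test, TMM, filterByExpr, Benjamini-Hochberg adjustment over 13834 genes, threshold 0.05). All 9 libraries entered 1 fit with the replicate number as a block, since the study describes a paired test. Same-numbered deviations correlated at 0.111 to 0.215 between control and *Slc2a1* gRNA, but at -0.065 to 0.162 between control and *Slc2a1/3/5/6/8* gRNAs and at -0.107 to -0.034 between the other two. Each SE was derived from the F statistic. The alternatives were no block, DESeq2 1.42.0, total-count scaling, no filter, limma 3.58.1 on log2(TPM + 1), 2-group fits and leaving out libraries. Lower bounds use 3 counts per library. Lengths were compared with scipy 1.17.1. Named genes outside the set are the up to 3 called genes of each list with the smallest adjusted p, called or nearest neighbours, the 3 best-correlated genes of each member, and genes detected in 1 population; abundant relatives, partners and defining markers were added as context. The members and lists were chosen with earlier results of these data known. Some of the listed genes are not reported here, though the counts over all lists include them.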

Additional observations from a re-analysis of the deposited data

How the results depend on the processing

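For *Slc2a1* gRNA against control the members' values are descriptive. There the *Arhgap32* log2 fold change turned to -0.0155 with total-count scaling and -0.0355 with limma on log2(TPM + 1), and ranged from -0.0504 to 0.33 when a library was left out. That of *Vrtn* (0.61 with all libraries) ranged from -0.0341 to 1.94 and that of *1700012B07Rik* from -0.41 to 0.11 (0.0065 without replicate 1 of all 3 groups). Limma, whose pseudocount of 1 shrinks low levels, gave *Vrtn* 3.95 against control and 3.93 against *Slc2a1* gRNA. In the same order it gave *Arhgap32* 2.01 and 2.05, *1700012B07Rik* -2.27 and -2.05, *Upk1a* -1.44 and -1.76, and *Arhgdib* -2.21 and -2.24.

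Counts are given in the order *Slc2a1* gRNA versus control, the 5 gRNAs versus control, and the 5 gRNAs versus *Slc2a1* gRNA. With the replicate block there were 642, 2204 and 319 genes called, and without it 534, 1885 and 129. Total-count scaling gave 737, 1963 and 295. DESeq2 called 1255, 2617 and 776, no filter 1448, 2751 and 974, limma 0, 433 and 31, fits of the 2 groups alone 2268, 2233 and 116, and the fit without replicate 1 of all 3 groups (chosen after seeing the data) 68, 1588 and 198. Leaving out 1 library gave 11 to 1291, 631 to 2559 and 42 to 383. The cause was not tested.

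Neighbours numbered 2, 12 and 1. They were 1, 9 and 1 without the replicate block, 3, 8 and 1 with total-count scaling, 2, 13 and 9 with DESeq2, 2, 16 and 9 with no filter, 0, 2 and 0 with limma, 10, 12 and 1 in 2-group fits and 0, 6 and 2 without replicate 1. Leaving out 1 library gave 0 to 3, 3 to 12 and 1 to 5. Listed genes numbered 5, 26 and 5. They were 5, 18 and 3 without the replicate block, 8, 27 and 10 with DESeq2, 9, 21 and 6 with total-count scaling, 9, 28 and 14 with no filter, 0, 5 and 2 with limma, 19, 21 and 4 in 2-group fits and 1, 14 and 3 without replicate 1. Leaving out 1 library gave 0 to 9, 5 to 29 and 3 to 7.

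The gene detected in control alone became 0 at 30 counts, 0 at the limit of 1 count and 6 without replicate 1 (1 to 6 leaving out libraries). Detection with *Slc2a1/3/5/6/8* gRNAs became 3, 7 and 16 (10 to 16), and with *Slc2a1* gRNA 3 without replicate 1 (0 to 3). Genes lost became 3, 1 and 5 without replicate 1 in control, *Slc2a1* and *Slc2a1/3/5/6/8* gRNA cells (0 to 3, 0 to 1 and 0 to 5). Leaving out a library moved length differences of *Arhgap32* between -211 and 420, -85.1 and 386, and -255 and 321 bases, of *1700012B07Rik* between -0.882 and 12.3, -0.881 and 12.3, and -5.00 and 6.40, and of *Arhgdib* for *Slc2a1* gRNA against control between -41.1 and 11.01. Low counts limit *Tnik*, *Ccdc7a* and *Gm15262*, at 23 to 57 counts per library where detected.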
